A study of Mus musculus with 48 samples.

Results

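The growth hormone and IGF axis was followed in liver, in isolated hepatocytes, in hepatocyte spheroids kept in vitro and in spheroids engrafted in the eye. The axis was represented by 10 named genes, taken by symbol from the 46517 mouse genes in the deposited tables, and all 10 were found. They are the receptor gene *Ghr*, the signal transducer genes *Stat5a* and *Stat5b*, the feedback inhibitor genes *Socs2* and *Cish*, the hormone gene *Igf1*, and the carrier genes *Igfals*, *Igfbp1*, *Igfbp2* and *Igfbp4*. In spheroids kept in vitro, *Igf1*, *Igfals*, *Igfbp2* and *Socs2* were lower than in liver, by fitted folds of 10.1 to 127, and *Igfbp1* was 10.1-fold above it. The largest fold, for *Igfbp2*, rests on 7 and 4 counts in the spheroids and is uncertain in size. In engrafted spheroids, after subtraction of the iris, *Socs2*, *Igfals* and *Igfbp2* were higher than in spheroids kept in vitro, and *Ghr* and *Igfals* were lower than in liver. The calls for *Socs2*, *Ghr* and *Igfals* in engrafted spheroids changed with the samples and corrected values used.

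Growth hormone from the pituitary binds its receptor on hepatocytes, where the kinase JAK2 phosphorylates STAT5A and STAT5B, which enter the nucleus and bind DNA. Liver is the main source of circulating IGF1, which travels in a complex with IGF binding proteins and the acid-labile subunit encoded by *Igfals*. The SOCS proteins are induced by the same signal and dampen it, while the *Igfbp1* gene is known for its repression by insulin and its induction by fasting, glucocorticoids and stress.

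The study placed liver spheroids in the anterior chamber of the eye (ACE) of mice, where they engraft on the iris and can be imaged, and asked how far their transcriptome resembles liver. All samples were labelled as wild-type albino mice of strain C57BL/6N, a strain that is not among those listed in the study's methods. The 3 livers came from donor mice, and the 3 samples of hepatocytes were liver cells enriched on a Percoll gradient after collagenase perfusion. The 2 samples of in vitro spheroids were made of such hepatocytes, in a medium with insulin, transferrin, selenium and dexamethasone and no added growth hormone in the listed recipe. The plating medium also held fetal bovine serum, and each later change put serum-free medium in place of only a part of it. The 5 explants, numbered 1, 2, 4, 5 and 6, were engrafted spheroids dissected with the surrounding iris 2 months after transplantation, and the 3 irises held no graft. The mice were adult males and females, and the labels do not give sex, age or which donor gave which sample. The study's methods speak of biological replicates, but the labels do not say which animal gave each sample, so p-values measure the spread between these samples.

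Total counts were 2718518 to 6789648 per sample. Liver 1 stood apart, with 166 of 13329 genes more than 2 on the log2 scale from the other livers, against 26 and 27 genes for livers 2 and 3. Its summed level of stellate cell and fibroblast markers was 1371 TPM (transcripts per kilobase of exon, scaled to a common total per sample), against 528 and 600.1 in the other livers. Of 10 hepatocyte markers, such as *Alb* and *Hnf4a*, 0 were called between any pair of livers, hepatocytes, spheroids and corrected explants. That does not show equal hepatocyte content. Mean *Hnf4a* was 226 TPM in livers and 120 TPM in corrected explants, while mean *Serpinc1* was 411 and 556 TPM. Mean *Alb* was 3222 and 5713 TPM, but duplicate removal limits how many reads the most abundant genes can keep. What that limit did to *Alb* before and after correction was not tested, so *Alb* is no guide to hepatocyte content here. In bulk samples, fewer cells of a type and less RNA per cell cannot be told apart.

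Stretches near the start sites of *Cish*, *Igfals* and *Igfbp1* are shown first, chosen because they carry letters to which the pathway's factors are known to bind. TTCNNNGAA is the core that STAT5 recognizes, and it reads the same on both strands. CAAAACA and TTATTTTG are the arms of the insulin response element of *Igfbp1*, bound by FOXO proteins. Sequences are from RefSeq on GRCm38.p6, written 5′ to 3′ on the plus strand, and capitals mark these letters.

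Cish, chr9:107296529-107296683: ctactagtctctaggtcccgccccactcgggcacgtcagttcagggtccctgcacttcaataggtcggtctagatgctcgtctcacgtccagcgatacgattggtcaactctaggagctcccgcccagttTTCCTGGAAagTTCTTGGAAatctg
Igfals, chr17:24877594-24877713: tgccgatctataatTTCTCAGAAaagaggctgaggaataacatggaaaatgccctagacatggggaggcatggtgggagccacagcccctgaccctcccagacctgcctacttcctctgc
Igfals, chr17:24878101-24878230: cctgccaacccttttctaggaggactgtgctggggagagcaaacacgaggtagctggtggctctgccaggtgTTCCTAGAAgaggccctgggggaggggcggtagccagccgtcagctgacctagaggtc
Igfbp1, chr11:7197637-7197786: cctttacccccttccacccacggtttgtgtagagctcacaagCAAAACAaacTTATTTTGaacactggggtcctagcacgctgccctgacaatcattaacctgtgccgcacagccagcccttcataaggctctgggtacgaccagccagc

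Promoter windows of 250 bases before to 50 bases after each RefSeq start were searched on both strands for 9 of the 10 genes, without *Socs2*. TTCNNNGAA stood in 8.3% of all 32851 windows. The *Cish* window held 2 copies, starting at the RefSeq start and 11 bases after it. Of the *Igfals* windows, the first held 1 copy at -236 from its start and the second 1 copy at -58 from its own. The third, chr17:24878497-24878796, which spans the start of the gene as counted here, held 0 copies. CAAAACA (6.28% of windows) and TTATTTTG (1.66%) each stood once in the *Igfbp1* window, at -108 and -98. No window of *Ghr*, *Stat5a*, *Stat5b*, *Igf1*, *Igfbp2* or *Igfbp4* held any of these letters, which says nothing of sites outside the window. These matches are a description of sequence and not evidence of binding.

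**Figure D1:**
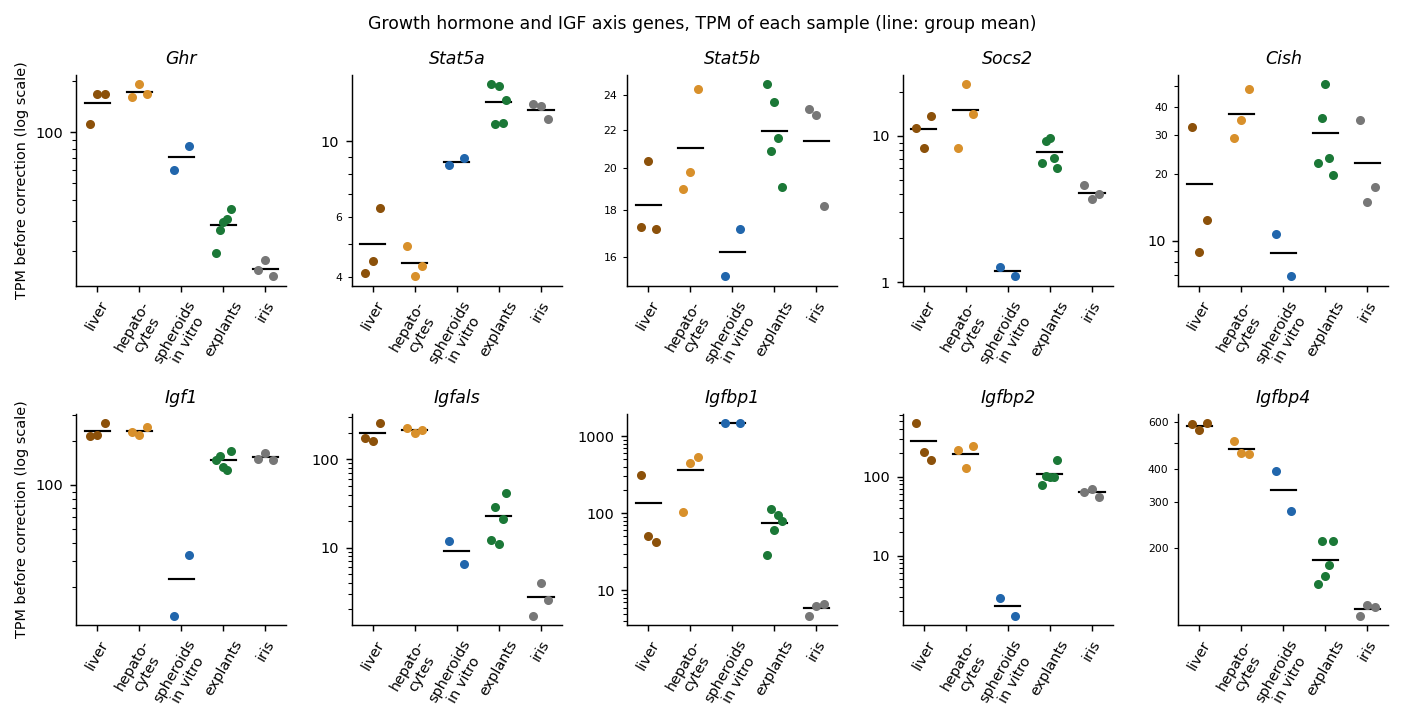
TPM before any iris correction (log scale) of each of the 10 genes in every sample of liver, hepatocytes, in vitro spheroids, explants and iris; points are samples and lines are group means. The in vitro spheroids lie below all other samples for *Socs2*, *Igf1* and *Igfbp2* and above all others for *Igfbp1*.

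Levels below are TPM, and fold changes between liver, hepatocytes and in vitro spheroids are from edgeR's quasi-likelihood test on counts. That test gives no standard error, so those printed with edgeR's values are the absolute log2 fold change divided by the square root of the F statistic. The threshold for a call was an adjusted p (Benjamini-Hochberg, over all genes tested) below 0.05 together with a log2 fold change beyond 1 in either direction. Of the 10 genes, 6 were called lower in in vitro spheroids than in hepatocytes and 0 higher, where 17.2% of 12247 genes were called, 9.11% lower and 8.13% higher. Against livers, 5 were called lower and 1 higher, where 19.2% of 12959 genes were called, 11% lower and 8.24% higher. These comparisons share the spheroid samples. Ranges were judged on counts scaled to library totals alone (CPM), without the further scaling factors of the test. On that scale the sample ranges were apart for 10 of 10 genes against hepatocytes, beside 58.5% of all genes tested, and for 9 of 10 against livers, beside 59.5%. Between hepatocytes and livers 0 of 10 were called, where 2.72% of 12236 genes were, 0.409% higher and 2.31% lower. There the ranges were apart for 1 of 10, beside 31.3% of all genes. In that comparison 1 of the 10 had an unadjusted p under 0.05, and limma-voom called 0 and DESeq2 called 1. The median log2 fold change of the 10 genes was -2.02 against hepatocytes and -1.17 against livers, beside 0.01 for all genes in both. The orders of the groups given below are in mean TPM, with overlap judged in TPM.

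*Ghr* encodes the growth hormone receptor (ENSMUSG00000055737, chromosome 15 of mm10, 3317760 to 3583492). It was at 112, 168 and 169 TPM in livers and at 161, 192 and 168 TPM in hepatocytes. In vitro spheroids had 59.7 and 82.9 TPM, below every liver and hepatocyte sample. *Ghr* was 3.01-fold lower in spheroids than in hepatocytes (log2 -1.59, standard error (SE) 0.26, adjusted p = 0.00471). It was 2.27-fold lower than in livers (log2 -1.18, SE 0.29, adjusted p = 0.0185). The call against livers was lost without liver 2 (log2 -1.08, adjusted p = 0.0674), without liver 3 (log2 -1.09, adjusted p = 0.054) or without spheroids 1 (log2 -0.90, adjusted p = 0.0885). In order of mean level, hepatocytes and livers overlapped, and spheroids, explants and irises followed with no overlap between neighbors.

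The transducers differed less. *Stat5a* (ENSMUSG00000004043, chromosome 11, 100859351 to 100885169) was at 4.1 to 6.38 TPM in livers, 4.01 to 4.91 TPM in hepatocytes and 8.53 and 8.91 TPM in spheroids. Spheroids were the highest of these samples, at log2 0.66 above hepatocytes (SE 0.25, adjusted p = 0.0923) and 0.68 above livers (SE 0.30, adjusted p = 0.113), neither of which was called. *Stat5b* (ENSMUSG00000020919, chromosome 11, 100780731 to 100850724), the form that predominates in growth hormone signaling in liver, was at 17.1 to 20.3 TPM in livers, 19 to 24.4 TPM in hepatocytes and 15.2 and 17.1 TPM in spheroids. Its log2 fold change was -0.70 against hepatocytes (SE 0.22, adjusted p = 0.0517) and -0.29 against livers (SE 0.22, adjusted p = 0.33). In mean TPM *Stat5b* exceeded *Stat5a* in each of the 5 groups, and every neighbor in the order of *Stat5b* levels overlapped in TPM, although spheroids were apart from livers in CPM. *Stat5a* was highest in explants and irises, which overlapped, then in spheroids, then in livers and hepatocytes, which overlapped. The counts of *Stat5a* include any reads in the 72 exon bases that it shares with *Stat3* on the other strand, since strand was not used.

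*Socs2* and *Cish* encode SOCS box proteins that are induced by STAT5 and dampen cytokine receptor signaling. *Socs2* (ENSMUSG00000020027, chromosome 10, 95385362 to 95417180) was at 11.3, 8.27 and 13.7 TPM in livers and 8.23, 22.6 and 14.1 TPM in hepatocytes. In vitro spheroids had 1.28 and 1.1 TPM, from 16 and 13 counts, below every other sample of the series. That was 15.7-fold lower than in hepatocytes (log2 -3.97, SE 0.50, adjusted p = 0.00171) and 10.1-fold lower than in livers (log2 -3.34, SE 0.33, adjusted p = 0.000842, with log2 -3.51 to -3.16 when 1 sample was left out). Explants had the third highest mean, overlapping livers and apart from irises.

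*Cish* (ENSMUSG00000032578, chromosome 9, 107296026 to 107302784), whose 2 TTCNNNGAA cores are printed above, spread widely within groups. It was at 32.7, 8.88 and 12.4 TPM in livers, 29.1, 35 and 48.2 TPM in hepatocytes and 10.7 and 6.9 TPM in spheroids. Spheroids were 5.43-fold lower than hepatocytes (log2 -2.44, SE 0.29, adjusted p = 0.00147) but overlapped livers (log2 -1.15, SE 0.51, adjusted p = 0.119). Hepatocytes were at log2 1.22 above livers (SE 0.43, adjusted p = 0.131), and without liver 1 this became a call (log2 1.92, adjusted p = 0.0226). Every neighbor in the order of its levels overlapped. *Cish* shares 479 exon bases, 7.46% of its length, with the antisense gene *Gm17041* and 261 with *Gm17040*, so reads there counted for both genes.

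*Igf1*, the hormone gene (ENSMUSG00000020053, chromosome 10, 87858265 to 87937042), was at 216, 217 and 262 TPM in livers and 229, 219 and 249 TPM in hepatocytes. In vitro spheroids had 12.8 and 33.1 TPM. These were the lowest values of the series, and the 2 spheroid samples differed from each other by a larger factor than the livers did. *Igf1* was 12.3-fold lower than in hepatocytes (log2 -3.63, SE 0.47, adjusted p = 0.00197) and 10.7-fold lower than in livers (log2 -3.43, SE 0.44, adjusted p = 0.00199). Both sizes turned on the spheroid sample used. Without spheroids 2 they were log2 -4.64 and -4.44, and without spheroids 1 they were -3.03 and -2.85. Hepatocytes and livers overlapped, and so did explants and irises below them.

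*Igfals*, the gene of the acid-labile subunit (ENSMUSG00000046070, chromosome 17, 24878770 to 24882008), was at 176, 161 and 255 TPM in livers and 227, 201 and 217 TPM in hepatocytes. In vitro spheroids had 11.9 and 6.48 TPM, from 33 and 17 counts, far below both. The difference was 29.5-fold against hepatocytes (log2 -4.88, SE 0.25, adjusted p = 4.91e-05) and 23.4-fold against livers (log2 -4.55, SE 0.33, adjusted p = 0.000275). Spheroids overlapped explants before correction, and irises were lowest.

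The binding protein genes took different directions. *Igfbp1* (ENSMUSG00000020429, chromosome 11, 7197782 to 7202546), with the insulin response element printed above, was at 315, 50.3 and 42.8 TPM in livers and 103, 446 and 538 TPM in hepatocytes. In vitro spheroids had 1456 and 1458 TPM, the highest values of the series and close to each other. Spheroids were 10.1-fold above livers (log2 3.34, SE 0.74, adjusted p = 0.0139), a call that was lost without liver 2 (log2 2.95, adjusted p = 0.0535). Without liver 1, the highest of that group, the log2 fold change was 4.81, and with 1 sample left out it ranged from 2.91 to 4.81. Against hepatocytes the log2 fold change was 1.67 (SE 0.57, adjusted p = 0.067), and without hepatocytes 1, the lowest of that group, it became a call (log2 1.24, adjusted p = 0.0118). Duplicate removal limits how many reads a short gene can keep, and *Igfbp1* reached 0.71 counts per exon base in a spheroid library, where the highest of any gene was 1.7. With that limit undone by calculation, the log2 fold change against hepatocytes was 1.91 (adjusted p = 0.0491).

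*Igfbp2* (ENSMUSG00000039323, chromosome 1, 72824503 to 72852474), a binding protein gene active in liver, was at 470.4, 207 and 164 TPM in livers and 215, 127 and 245 TPM in hepatocytes. In vitro spheroids had 2.88 and 1.74 TPM, from 7 and 4 counts. This was the largest difference of the 10 genes, 104-fold lower than in hepatocytes (log2 -6.71, SE 0.46, adjusted p = 0.000153) and 127-fold lower than in livers (log2 -6.99, SE 0.63, adjusted p = 0.000658). The spheroid level was 0.825% of the liver level. For comparison, 868 genes at 200 TPM or more in iris were all counted in the spheroids, at 0.285% of their iris level or more, and the 5th percentile was 1.56%. Those genes were not chosen as specific to iris, and their median was 80.5%, so they do not give a background level. Of the iris markers, mean *Pax6* was 2.39 TPM in spheroids and 200 TPM in irises, and *Pmel* 141 and 2377 TPM. Whether the 7 and 4 counts of *Igfbp2* came from the spheroids themselves was not tested. The 104-fold and 127-fold differences are therefore uncertain in size.

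*Igfbp4* (ENSMUSG00000017493, chromosome 11, 99041244 to 99054392), a binding protein gene whose product restrains IGF action, was at 589.7, 562 and 595 TPM in livers, 509, 458 and 455 TPM in hepatocytes and 392 and 276 TPM in spheroids. All 5 groups were apart in the order of its levels. Its log2 fold change was -0.85 against hepatocytes (SE 0.21, adjusted p = 0.0214) and -0.94 against livers (SE 0.19, adjusted p = 0.00965), past the p limit in both and under the fold limit. Without spheroids 1 the difference from livers passed the fold limit too (log2 -1.11, adjusted p = 0.0108).

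**Figure D2:**
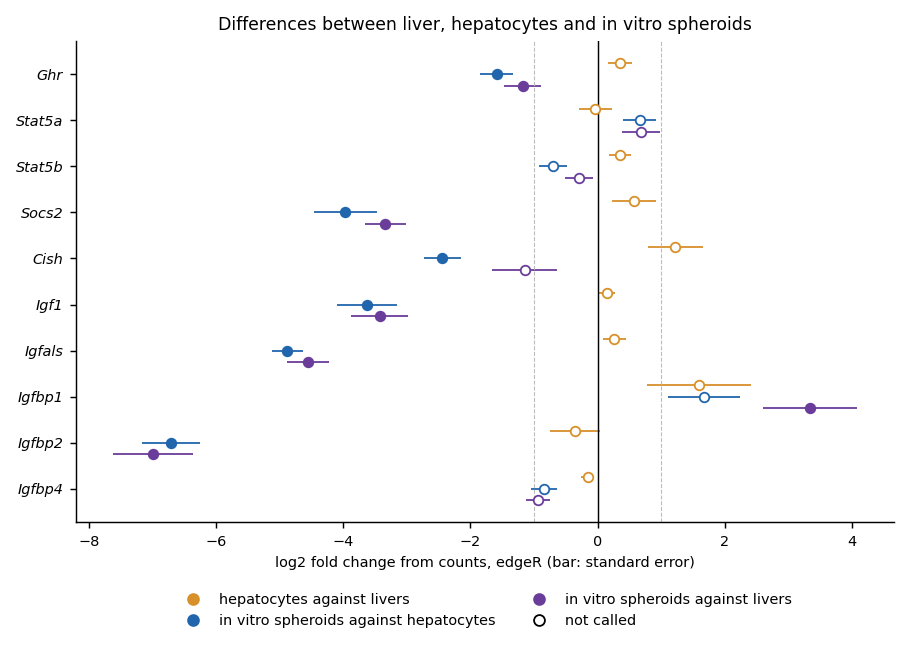
Log2 fold changes from edgeR of the 10 genes for hepatocytes against livers (orange), in vitro spheroids against hepatocytes (blue) and in vitro spheroids against livers (purple), with standard errors as bars, filled points for called genes and dashed lines at the fold limit. *Igfbp2* lies lowest at -6.71 and -6.99, *Igfbp1* lies to the right of 0 in all 3 comparisons, and no orange point is filled.

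Some marker genes of other cells and programs moved with these comparisons, and their part in the results was not tested. In spheroids against livers, 5 of 5 sinusoidal endothelial markers and 5 of 8 stellate cell and fibroblast markers were called lower. Summed, the endothelial list was at 51.8 to 59.1 TPM in spheroids and 192 to 311 TPM in livers, and the stellate list at 336 to 389 TPM and 528 to 1371 TPM. Of 6 glucocorticoid response genes, *Fkbp5*, *Zbtb16* and *Sgk1* were called higher in spheroids than in hepatocytes and in livers. *Tsc22d3*, *Per1* and *Tat* were not called, and their means in spheroids were below those in livers. Summed, the 6 genes were at 1250 to 1344 TPM in spheroids, 1193 to 1620 TPM in hepatocytes and 1186 to 1860 TPM in livers, which overlapped. In spheroids against hepatocytes, 2 of 5 sinusoidal markers (*Stab2* and *Clec4g*) were lower. There 4 of 8 macrophage markers (*Cd68*, *Lyz2*, *C1qb* and *Cd14*) and 2 of 5 Kupffer cell markers, for liver macrophages (*Vsig4* and *Cd5l*), were higher. Summed, macrophage markers were at 571 to 753 TPM in spheroids, 151 to 280 TPM in hepatocytes and 511 to 1133 TPM in livers. Against livers, *Cd14* and *Vsig4* were higher in spheroids and *Csf1r* and *Mrc1* lower. Of 6 immediate early genes, 5 were called higher in hepatocytes than in livers and 5 lower in spheroids than in hepatocytes, and 5 of 5 tested were higher in spheroids than in livers. Summed, they were at 54.3 to 80.3 TPM in livers, 569 to 1480 TPM in hepatocytes and 353 to 409 TPM in spheroids. None of the sinusoidal, stellate or macrophage markers was at 0 in all samples of a group among livers, hepatocytes and spheroids.

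The explants held iris as well as graft, so they were first compared with irises alone. Of the 10 genes, 3 were called higher in explants and 0 lower, where 6.47% of 16764 genes were called, 6.16% higher and 0.316% lower. The ranges of explants and irises were apart for 6 of 10, beside 25.3% of all genes tested. The median log2 fold change of the 10 was 0.81, beside 0.01 for all genes. All 10 hepatocyte markers were called higher as well.

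*Igfbp1* was at 28.6, 114, 60.8, 94.9 and 79.3 TPM in explants 1, 2, 4, 5 and 6 and at 4.72, 6.31 and 6.76 TPM in irises. It was 13.7-fold higher in explants (log2 3.78, SE 0.51, adjusted p = 0.00171), with all explants above all irises. Limma-voom did not call it (log2 3.60, adjusted p = 0.0523). *Igfals* was at 12.1, 28.6, 11.1, 21.1 and 41.7 TPM in explants and 1.71, 3.95 and 2.59 TPM in irises. Its difference was 9.12-fold (log2 3.19, SE 0.60, adjusted p = 0.00935), and the call was lost without iris 1 (adjusted p = 0.0578) or iris 3 (adjusted p = 0.0546) and with limma-voom (log2 2.98, adjusted p = 0.0743). The iris level of *Igfals*, 6 to 13 counts a sample, was 1.39% of the liver level, where 871 genes at 200 TPM or more in liver were all counted in irises at 0.471% or more. Those genes were not chosen as specific to liver, and their median was 58.1%, so they do not give a background level. The hepatocyte markers varied: mean *Hnf4a* was 1.78 TPM in irises and 226 TPM in livers, *Asgr1* 14 and 1084 TPM, and *Alb* 812 and 3222 TPM. Whether the *Igfals* reads of the irises came from iris cells was not tested.

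*Socs2* was at 6.57, 9.18, 9.73, 7.01 and 6.07 TPM in explants and 4.6, 3.7 and 4.01 TPM in irises, with no overlap. It stood at the fold limit (log2 1.00, SE 0.19, adjusted p = 0.00856), and the call was lost in 4 of the 8 fits that left out a sample. Those were the fits without explant 2 (log2 0.92), explant 4 (log2 0.93), iris 2 (log2 0.93) or iris 3 (log2 0.98). It was also lost, at log2 0.92 to 0.99, with RLE size factors, library size alone, DESeq2, limma-voom, a single fit of all groups, the technical libraries labelled a alone, the limit on reads undone, or the replicate number as a block. *Ghr*, at 19.4 to 35.2 TPM in explants and 14.1 to 17.6 TPM in irises, stayed just under the limit (log2 0.96, SE 0.21, adjusted p = 0.0163). Without explant 1 *Ghr* passed it (log2 1.08, adjusted p = 0.00146), as it did without iris 2 (log2 1.04, adjusted p = 0.0488).

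*Igfbp2* was at 79.0, 102, 97.8, 97.6 and 164 TPM in explants and 63.7, 69.5 and 55.8 TPM in irises (log2 0.90, SE 0.26, adjusted p = 0.0531), and it was called without explant 1 (log2 1.01, adjusted p = 0.0263). *Igfbp4*, at 147 to 214 TPM and 111 to 122 TPM, passed the p limit at log2 0.73 (SE 0.17, adjusted p = 0.0252). *Igf1* differed from irises by log2 0.03 (SE 0.13, adjusted p = 0.91), a sign that turned in several alternatives. It was at 149, 157, 133, 126 and 169 TPM in explants and 151, 166 and 148 TPM in irises, so the iris itself carried *Igf1* RNA at 66.9% of the liver level. *Stat5a*, *Stat5b* and *Cish* overlapped between explants and irises, with log2 fold changes of 0.17, 0.13 and 0.53 (adjusted p = 0.401, 0.447 and 0.377).

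To set the graft beside liver, the study's formula was used: the iris mean times the iris share of the explant was subtracted from its TPM, the rest was divided by 1 minus that share, and negative values were set to 0. The iris shares solved from the deposited tables were 82, 68, 81, 72 and 59% for explants 1, 2, 4, 5 and 6 (mean 72.4% ± 9.56, SD, n = 5). With such shares most of the RNA of each explant counts as iris, and the subtraction widens the spread between explants. Corrected values are therefore estimates of TPM. Differences between them are given as log2(TPM + 1), a scale that makes changes of low genes look smaller than they are. The test across all genes was limma's moderated test. An exact permutation test, two-sided, is given for single genes whose ranges were apart, called or not. Its smallest possible p was 0.0179 for 5 against 3 samples and 0.0476 for 5 against 2. The 3 comparisons below share the explants.

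**Figure D3:**
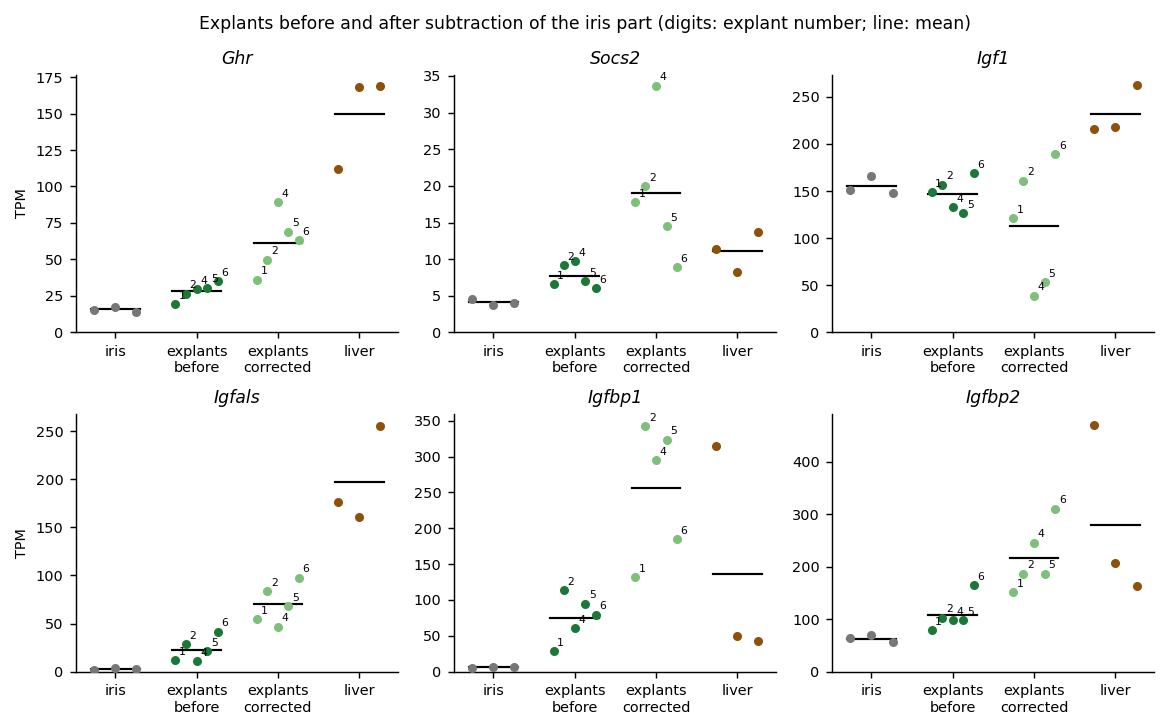
TPM of *Ghr*, *Socs2*, *Igf1*, *Igfals*, *Igfbp1* and *Igfbp2* in iris, in explants before correction, in explants after subtraction of the iris part, and in liver, with explant numbers beside the points and lines at the means. *Ghr* rises from 19.4 to 35.2 TPM before to 36 to 89.1 TPM after correction and stays below the livers, while *Igf1* spreads to between 38.8 and 189 TPM.

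Against livers, 2 of the 10 genes were called lower in corrected explants and 0 higher, where 13.3% of 22878 genes were called and 2.82% lower. Against hepatocytes 2 were called lower and 0 higher, where 17% of 22612 genes were called and 3.05% lower. Against in vitro spheroids 3 were called higher and 1 lower, where 5.32% of 22706 genes were called, 4.37% higher and 0.951% lower. The ranges were apart for 5, 5 and 6 of the 10 genes, beside 27%, 29.5% and 25.7% of all genes tested, and called-higher shares were 10.5% against livers and 14% against hepatocytes. The median of all genes tested was shifted up in corrected explants, by log2 0.59, 0.73 and 0.55 in these comparisons, and the medians of the 10 genes were 0.08, -0.07 and 1.4.

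*Ghr* was at 36, 49.8, 89.1, 69.1 and 63.2 TPM in corrected explants, below all 3 livers and all 3 hepatocyte samples. The difference was -1.31 against livers (SE 0.33, adjusted p = 0.0291) and -1.54 against hepatocytes (SE 0.31, adjusted p = 0.00823), with an exact permutation p of 0.0179 in both. The call against livers was lost without explant 2 (-1.25, adjusted p = 0.0504), liver 2 (-1.21, adjusted p = 0.135) or liver 3 (-1.21, adjusted p = 0.138). It was also lost with the corrected values as deposited (-1.35, adjusted p = 0.0803). With the replicate number as a block, which called 0 genes in any comparison of corrected explants, *Ghr* was at -1.67 against livers (adjusted p = 0.283) and -2.03 against hepatocytes (adjusted p = 0.233). Against in vitro spheroids, which it overlapped, *Ghr* differed by -0.26 (SE 0.41, adjusted p = 0.714). On TPM before correction it was called lower than in spheroids (-1.31, adjusted p = 0.00195).

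*Stat5a* was at 25.3, 8.83, 23.8, 8.64 and 14.4 TPM in corrected explants, all above the livers and hepatocytes, and was not called (1.41 against livers, adjusted p = 0.0982, and 1.54 against hepatocytes, adjusted p = 0.0596). Its exact permutation p was 0.0357 in both. Without explant 2, the difference from hepatocytes became a call (1.71, adjusted p = 0.0459). *Stat5b*, at 15.7 to 39.6 TPM, overlapped livers and hepatocytes, with differences of 0.42 and 0.23 (adjusted p = 0.481 and 0.668).

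*Socs2* was at 17.8, 20, 33.7, 14.5 and 8.9 TPM in corrected explants, overlapping livers (0.63, SE 0.47, adjusted p = 0.395) and hepatocytes (0.31, SE 0.50, adjusted p = 0.658). All explants lay above both samples of in vitro spheroids, by 3.07 (SE 0.64, adjusted p = 0.0323, exact permutation p = 0.0476). That call was lost without explant 1, 2 or 5 and without either spheroid sample (adjusted p from 0.0566 to 0.194), with differences between 3.01 and 3.13, with the corrected values as deposited (3.07, adjusted p = 0.0663) and under the replicate block (3.18, adjusted p = 0.24). *Cish* ranged from 15.8 TPM in explant 6 to 172 TPM in explant 4, and differed by 1.33 from livers (SE 0.78, adjusted p = 0.291), by 0.13 from hepatocytes (SE 0.71, adjusted p = 0.897) and by 2.11 from in vitro spheroids (SE 0.89, adjusted p = 0.266, exact permutation p = 0.0952). On TPM before correction, *Cish* was called higher than in spheroids (1.63, adjusted p = 0.00601).

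*Igf1* was at 121, 161, 38.8, 53.2 and 189 TPM in corrected explants, below every liver and hepatocyte sample and above both in vitro spheroid samples. None of these differences was called. They were -1.27 against livers (SE 0.51, adjusted p = 0.137), -1.28 against hepatocytes (SE 0.51, adjusted p = 0.117) and 2.14 against in vitro spheroids (SE 0.70, adjusted p = 0.149). The exact permutation p was 0.0714, 0.0714 and 0.0476. On TPM before correction, *Igf1* was called higher than in spheroids (2.76, adjusted p = 0.000148). Explant 4 is listed at 0 in the deposited corrected table, in a column of which 16.3% of genes equal the formula, and its 38.8 TPM is from the formula at the same share of 81%. That column is returned for 100% of genes if the share is subtracted from the iris mean, where the formula multiplies them.

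*Igfals* was at 54.8, 83.5, 46.7, 68.3 and 97.7 TPM in corrected explants, between the in vitro spheroids and the livers with no overlap on either side. It was lower than in livers by -1.50 (SE 0.30, adjusted p = 0.0124) and than in hepatocytes by -1.65 (SE 0.28, adjusted p = 0.00363), with an exact permutation p of 0.0179 in both. It was higher than in spheroids by 2.81 (SE 0.44, adjusted p = 0.0112, exact permutation p = 0.0476). The call against livers was lost without liver 3 (-1.30, adjusted p = 0.0777), and that against spheroids without spheroids 2 (2.42, adjusted p = 0.0813). The call against spheroids was also lost on TPM before correction (1.12, adjusted p = 0.0891), so it depends on the subtraction. With the corrected values as deposited, the difference from livers was -1.49 (adjusted p = 0.0508). The replicate block left no call against livers (-1.30, adjusted p = 0.291), hepatocytes (-1.65, adjusted p = 0.238) or spheroids (2.81, adjusted p = 0.249).

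*Igfbp1* was at 132, 343, 295, 324 and 185 TPM in corrected explants. All lay below the spheroids kept in vitro, by -2.60 (SE 0.39, adjusted p = 0.00928, exact permutation p = 0.0476), although the call was lost without either spheroid sample (adjusted p = 0.109 and 0.119) or under the replicate block (-2.77, adjusted p = 0.245). Explants overlapped livers (1.43, SE 0.63, adjusted p = 0.172) and hepatocytes (-0.28, SE 0.55, adjusted p = 0.715). Without liver 1, the difference from livers became a call (2.35, adjusted p = 0.0151).

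*Igfbp2* was at 152, 186, 246, 187 and 310.3 TPM in corrected explants, within the range of livers and hepatocytes together (-0.26 against livers, adjusted p = 0.622, and 0.15 against hepatocytes, adjusted p = 0.719). Against in vitro spheroids it was higher by 6.01 (SE 0.38, adjusted p = 0.00054, exact permutation p = 0.0476), the largest difference of the 10 genes, and the call was kept in each fit that left out a sample but not under the replicate block (5.70, adjusted p = 0.24). *Igfbp4* was at 279.6 to 419 TPM, below the livers by -0.80 (SE 0.17, adjusted p = 0.0136, exact permutation p = 0.0179), past the p limit and under the fold limit. It differed by -0.50 from hepatocytes (SE 0.17, adjusted p = 0.0705, exact permutation p = 0.0357) and was within 0.02 of spheroids (SE 0.24, adjusted p = 0.957).

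**Figure D4:**
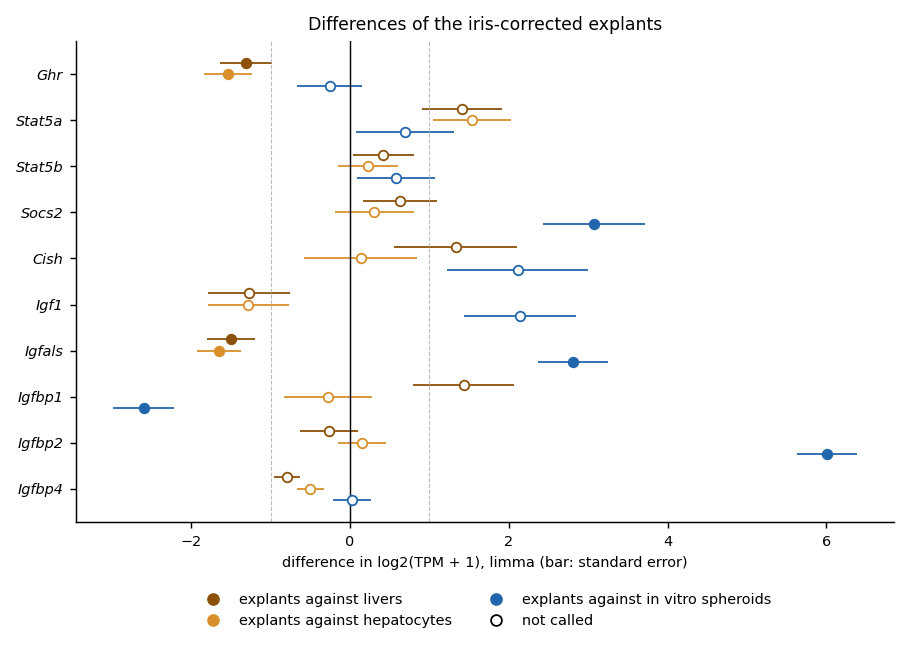
Differences in log2(TPM + 1) of iris-corrected explants against livers (brown), hepatocytes (orange) and in vitro spheroids (blue) for the 10 genes, with standard errors from limma as bars, filled points for called genes and dashed lines at the fold limit. *Igfbp2* lies at 6.01 against spheroids and close to 0 against livers and hepatocytes, while *Ghr* and *Igfals* lie to the left against livers and hepatocytes.

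Macrophage markers moved with the explants, and their part in these values was not tested. In corrected explants 7 of 8 were called higher than in livers, with summed levels of 2301 to 5930 TPM against 511 to 1133 TPM, and none of the 8 was at 0. Of the 5 sinusoidal endothelial markers 3 were called lower, and of the 5 Kupffer cell markers *Clec4f* was lower. The same count of 7 of 8 macrophage markers was higher than in hepatocytes, and 5 of 8 (*Adgre1*, *Csf1r*, *Lyz2*, *C1qa* and *C1qb*) were higher than in in vitro spheroids. Before correction, 5 of 8 (*Adgre1*, *Lyz2*, *C1qa*, *C1qb* and *Cd14*) were higher in explants than in irises, as were *Jun* and *Atf3* of 5 immediate early genes. Of 6 immediate early genes, *Fos*, *Jun*, *Egr1* and *Atf3* were higher in corrected explants than in livers, and *Fos*, *Fosb* and *Ier2* lower than in hepatocytes. Of 6 glucocorticoid response genes, *Tsc22d3*, set to 0 in all explants by the correction, was lower than in all 3 other groups, and *Fkbp5* lower than in spheroids. Of the 8 stellate cell and fibroblast markers *Col1a1* was called higher and *Lrat* and *Colec11* lower, and *Lrat* was at 0 in all corrected explants. Iris markers stayed at 318 to 2824 TPM after correction, beside 463 to 473 TPM in livers, with *Pax6* called, and smooth muscle markers at 268 to 1250 TPM beside 144 to 161 TPM, with *Des* and *Cnn1* called. Mean *Pmel*, *Mlana* and *Dct* were 157, 93.5 and 211 TPM in livers and 141, 85.7 and 179.5 TPM in spheroids. *Pax6*, *Mitf* and *Six3* were at 3.17, 4.49 and 0.121 TPM in livers. Mean *Alb* was 812 TPM in irises. Whether such reads were carried over between libraries was not tested, so these levels need not be expression in the tissue. Of the 5 endothelial markers, *Emcn* was called higher.

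Around the 10 genes, 24 other genes of the pathway were followed. *Gh*, the growth hormone gene, had 0 counts in all 16 samples. *Igf1r*, the IGF1 receptor gene, was at 25.1 to 30.5 TPM in irises and 0.734 to 1.55 TPM in livers, 0.177 to 0.624 TPM in hepatocytes and 0 and 0.169 TPM in spheroids, too low to be tested between the last 3. *Jak2*, the kinase of the receptor, was at 9.38 to 9.97 TPM in livers, 4.29 to 8.35 TPM in hepatocytes and 10.2 and 11.5 TPM in spheroids, and was called in no comparison.

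Between hepatocytes and livers, 1 of 16 tested was called higher and 3 lower, beside 0.409% and 2.31% of all genes. *Socs3*, a SOCS gene induced by inflammatory cytokines, was 20.8-fold higher (log2 4.38, SE 0.40, adjusted p = 0.00445), at 88.2 to 251 TPM in hepatocytes and 8.52 to 10.6 TPM in livers. *Igfbp3*, *Igfbp6* and *Igfbp7*, which non-parenchymal cells express, were lower by -4.12, -3.03 and -2.37 (adjusted p = 0.0342, 0.0471 and 0.0299). Between in vitro spheroids and hepatocytes, 1 of 14 was higher and 3 lower, beside 8.13% and 9.11%. *Socs3* was at 1.67 and 8.94 TPM in spheroids (log2 -5.42, SE 0.67, adjusted p = 0.0017). *Prlr*, the gene of the prolactin receptor, which also signals through STAT5, was at 30.8 to 45.2 TPM in hepatocytes and 2.18 and 7.5 TPM in spheroids (log2 -3.19, SE 0.52, adjusted p = 0.00471). *Irs2*, an insulin receptor substrate gene, was lower as well (log2 -2.93, adjusted p = 0.0129).

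*Grb10*, an adaptor that inhibits insulin and IGF1 receptors, was the one called higher, at 5.84 and 10.1 TPM in spheroids against 0.77 to 1.31 TPM in hepatocytes (log2 2.48, SE 0.36, adjusted p = 0.00283). Between spheroids and livers, 1 of 15 was higher, again *Grb10*, and 4 were lower, led by *Igfbp5* (log2 -3.04, adjusted p = 0.00908), *Prlr* (log2 -3.00, adjusted p = 0.00609) and *Igfbp7* (log2 -2.67, adjusted p = 0.008), beside 8.24% and 11% of all genes. Between explants and irises, 2 of 22 were higher and 0 lower, beside 6.16% and 0.316%. They were *Prlr* (log2 2.57, SE 0.61, adjusted p = 0.0259) and *Socs3* (log2 1.2, SE 0.34, adjusted p = 0.0489).

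In corrected explants 4 of 22 tested were called higher than livers, 4 higher than hepatocytes and 3 higher than in vitro spheroids, and 0 lower in any. Of all genes, 10.5%, 14% and 4.37% were called higher and 2.82%, 3.05% and 0.951% lower. *Igfbp5*, *Grb10* and *Socs3* led against livers, by 3.52, 3.88 and 3.50 (adjusted p = 0.00283, 0.00105 and 0.00257). *Igfbp5* was at 142 to 278 TPM in irises and 5.98 to 20.7 TPM in livers, and *Grb10* at 22.1 to 26.5 TPM and 1.52 to 2.91 TPM, so the corrected values of both rest on a large iris part. Against in vitro spheroids *Igfbp5* differed by 5.73 (adjusted p = 0.00145), *Socs3* by 4.52 (adjusted p = 0.011) and *Grb10* by 2.50 (adjusted p = 0.027).

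The 10 genes did not form 1 pattern across the 16 samples. On log2(TPM + 1) before correction, Pearson's r was 0.96 between *Ghr* and *Igfbp4*, 0.93 between *Igf1* and *Igfbp2*, 0.85 between *Socs2* and *Igfbp2* and 0.82 between *Socs2* and *Igf1*, but 0.17 between *Ghr* and *Igf1* and -0.47 between *Igf1* and *Igfbp1*. These are descriptions over 16 samples of 5 groups, which share their group differences and, in explants, their iris part. Among 19450 genes, *Igfals* was most like *Ces1f* (r = 0.985) and *Pigr* (r = 0.981), *Igf1* like *Gpr146* (r = 0.961) and *Tst* (r = 0.939), and *Igfbp1* like *Net1* (r = 0.935) and *Preb* (r = 0.918). *Socs2* was most like *Apol9a* (r = 0.904) and *Wdtc1* (r = 0.899), *Stat5a* like *Fam118b* (r = 0.981) and *Lbr*, and *Stat5b* like *Bloc1s5* (r = 0.849) and *Gm13722* (r = 0.834). *Igfbp2* was most like *Raet1d* and *Abat*, and *Igfbp4* like *Gch1* and *Pde3b*. For *Cish* the nearest was *Gm17041* (r = 0.980), with which it shares reads, and then *Gm13855* (r = 0.855). By Spearman correlation, other genes were nearest to *Stat5a*, *Socs2*, *Igf1*, *Igfbp1* and *Igfbp2*. Only *Bloc1s5*, *Gm17041*, *Ces1f* and *Pde3b* were kept, for *Stat5b*, *Cish*, *Igfals* and *Igfbp4*.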

How the data were processed

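RNA of 16 mouse samples was sequenced by Smart-seq3 as 3 technical libraries each. Per the labels and file headers, the authors aligned reads with TopHat2 to mm10, removed duplicates, and counted reads per gene with featureCounts v1.4.6-p5, unstranded, with reads on overlapping genes given to each. The deposited counts per sample equal the sums of the 3 libraries. TPM were calculated from these counts and gene lengths, and equal the deposited TPM in 100% of values. The authors also deposited corrected explant values, here a score because the column of explant 4 does not follow their formula and columns do not sum as TPM do. Iris shares were solved from that table and the formula was applied to all 5 explants.

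The quasi-likelihood F-test of edgeR 4.0.16, after filterByExpr and TMM scaling, was used for counts, and limma 3.58.1 for TPM (trend, pseudocount 1, mean of at least 1 TPM in a group) in R 4.3.3. p-values were adjusted by Benjamini-Hochberg over all genes tested. Alternatives were DESeq2 1.42.0, limma-voom, other scaling, filters, pseudocount and corrections, a replicate block, and each sample left out. Python 3.11.15, scipy 1.17.1 and matplotlib 3.10.9 served for permutation and figures. Fits were tested on simulated data. Named genes are all 10 members, called genes of the pathway list (the 3 largest), and the 2 genes most like each member by Pearson correlation. Those for *Ghr* are not reported here. Members and marker lists were chosen with earlier results of these data known. The ERCC controls took 418 counts. Reads were not analysed here.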

Additional observations from a re-analysis of the deposited data

Results flagged for a closer look

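Among 20 sets of 5 explant values (10 genes, before and after correction), 1 held a sample far from the others, where chance gives about 1 in 20. *Igfbp2* before correction was at 164 TPM in explant 6 and at 102 TPM in the next highest, a gap of 0.725 of the whole range, above the limit of 0.71 for 5 samples. Explant 6 had the lowest iris share solved, 59%, and after correction its *Igfbp2* value of 310.3 TPM was not far from the others by the same measure.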

How the results depend on the processing

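Of 1110 values of single genes under alternatives, 1003 kept direction and call, 33 gained a call, 44 lost it and 30 turned sign. With 2 to 5 samples a group, 1 sample often decided a call. The number of the 10 genes called stayed within 1.5 times for in vitro spheroids against hepatocytes (6 to 7) and against livers (4 to 7). For explants against irises it was 0 with limma-voom, 5 without the fold limit, and 1 (without iris 3) to 5 (without explant 1) with 1 sample left out. For hepatocytes against livers it was 2 without a filter, 1 with DESeq2, and 0 to 1 (without liver 1) with 1 sample left out. For corrected explants it was 5 against livers and 5 against hepatocytes on TPM before correction, and 0 against livers with the deposited corrected values. With 1 sample left out it was 0 (without liver 3) to 3 against livers, 1 without explant 2 or liver 2, 2 to 3 against hepatocytes, and 1 (without spheroids 2) to 4 against spheroids, with 2 without spheroids 1. The replicate block, which used samples with shared numbers only, gave 0 calls in each of these comparisons, where it called 0 of all genes, and 2, 0, 7 and 7 calls for explants against irises, hepatocytes against livers, and spheroids against hepatocytes and livers. Deviations of same-numbered hepatocytes and livers had r = 0.0907, 0.064 and -0.034, and not every sample was most like its own number, so the numbers were not taken to pair samples. Over all genes, explants against irises gave 583 with limma-voom and 1975 without the fold limit (1085 otherwise), hepatocytes against livers 20 with limma-voom, 647 with DESeq2, 1140 in a single fit, 1205 without a filter and 165 from technical libraries a (333), spheroids against livers 3894 without the fold limit (2492), and corrected explants 1435, 2239 and 483 with deposited values (3047, 3850 and 1208) and 10229, 11464 and 8834 before correction. With 1 sample left out these ranged over 583 to 1259 (lowest without iris 1, with 630 and 603 without irises 2 and 3) for explants against irises. For hepatocytes against livers they ranged from 8 (without hepatocytes 3) to 448, with 15 without hepatocytes 2 and 20, 99 and 143 without livers 2, 3 and 1. For corrected explants they were 1079 (without liver 2) to 3969 against livers, with 1104 and 1798 without livers 3 and 1, 2018 to 4777 against hepatocytes, with 2018 to 2196 without any 1 hepatocyte sample, and 482 to 1406 against spheroids, with 482 and 687 without spheroids 1 and 2 and 756 without explant 5. The cause was not tested.

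Signs turned as follows. For explants against irises, *Igf1* was -0.060 by library size, -0.0047 in a single fit and -0.020 in technical libraries a, and -0.10 (without explant 6) to 0.085 with 1 sample left out, and *Stat5b* was -0.021 in technical libraries a. For hepatocytes against livers, *Stat5a* was 0.017 in a single fit and -0.20 to 0.19 (without liver 3) with 1 sample left out, and *Igfbp2* -0.62 to 0.19 (without liver 1). For corrected explants against livers, *Socs2* was -0.47 and *Igfbp1* -0.36 before correction, and *Igfbp2* -0.57 to 0.19 (without liver 1) with 1 sample left out. Against hepatocytes before correction, *Igfbp2* was -0.84, *Cish* -0.35 and *Socs2* -0.79. With 1 sample left out, *Cish* was -0.38 (without explant 4) to 0.46, *Socs2* -0.036 (without hepatocytes 1) to 0.64, *Igfbp2* -0.13 (without hepatocytes 2) to 0.34, and *Igfbp1* -1.03 to 0.16 (without hepatocytes 3). Against spheroids, *Igfbp4* was -0.10 with deposited values, -0.88 before correction, -0.00043 with shares from iris-specific genes, and -0.23 (without spheroids 2) to 0.27 with 1 sample left out.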
